A study of Mus musculus with 21 samples.

Results

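The genes of cytosolic nucleic acid sensing examined here were 8 of the 55487 in the deposited table: Zbp1, Ddx58, Ifih1, Dhx58, Tmem173, Mavs, Tbk1 and Ikbke. They were taken by name through their Ensembl identifiers. Newer annotations call Tmem173 Sting1 and Ddx58 Rigi. Their RNA was read in microglia, the resident macrophages of the brain. The cells came from the striatum of males aged 8 to 10 weeks and were sorted as live cells with CD11b and P2RY12 at the surface and little CD45.

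The design crosses the mother's treatment with the offspring's. Mothers were controls or had maternal immune activation (MIA), an immune challenge in pregnancy, and their offspring were injected into the peritoneum with saline or with lipopolysaccharide (LPS), 4500 endotoxin units per gram, and microglia were taken 18 hours later. LPS is a bacterial cell wall component that is read by Toll-like receptor 4. The agent of the MIA, the strain and the genotype were not given in the sources used here. Batch 1 gave 6 control offspring with saline, 5 control offspring with LPS, 5 MIA offspring with saline and 3 with LPS, and the fold changes and permutation tests rest on these. A further MIA LPS library, replicate 4, was alone in batch 2, so the batch term takes it up and it adds nothing to the fold changes; its levels are given apart. A MIA saline library that its submitters titled excluded was left out.

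Total counts of the batch 1 libraries ran from 9.85 M to 19.0 M. Levels below are CPM, counts scaled to a common library total with TMM, and fold changes, standard errors (SE) and p-values come from edgeR's quasi-likelihood test, with Benjamini-Hochberg adjustment over 14741 genes. A gene is said to have risen or fallen where the adjusted p is under 0.05. Nothing in the labels says that the mice came from separate litters, so a p-value sets a difference against the spread of these samples only. MIA LPS replicate 2 and the batch 2 library stood apart, and results that rest on them are given with and without them. The batch 2 library had a count in 12285 genes, and 58.12% of its counts were from a single rRNA gene. In the batch 1 libraries used, 18035 to 19612 genes had a count and that rRNA gene took 42.98% to 53.77%. The part of this in the levels of the batch 2 library was not tested. Summed CPM of 9 microglial markers, P2ry12 and Tmem119 among them, was 11580 to 15720 in saline libraries and 4555 to 7021 in LPS libraries of batch 1, and none of the 9 was at 0 in any group.

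Cells watch their cytosol for misplaced DNA and for viral or unedited double-stranded RNA. RIG-I (Ddx58) and MDA5 (Ifih1) bind RNA and signal through MAVS on mitochondria, LGP2 (Dhx58) tunes both, and STING (Tmem173) on the endoplasmic reticulum answers the DNA sensor cGAS. The kinases TBK1 and IKK-epsilon (Ikbke) then phosphorylate interferon regulatory factors, while ZBP1 reads Z-form nucleic acids and can start necroptosis. In microglia the STING and MDA5 arms are known for their part in type I interferon responses of the brain, and several of the sensors are themselves interferon targets.

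In GRCm38 coordinates (GENCODE M21) the sensor genes lie at chr2:173206612-173218923 (Zbp1), chr4:40203773-40239828 (Ddx58), chr2:62595798-62646255 (Ifih1) and chr11:100694884-100704271 (Dhx58). The adaptor genes lie at chr18:35733679-35740554 (Tmem173) and chr2:131234063-131248025 (Mavs), and the kinase genes at chr10:121546455-121586787 (Tbk1) and chr1:131254343-131279606 (Ikbke). All are protein coding and all but Mavs are on the minus strand. Values are totals over the gene.

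All 8 genes passed the filter on low counts. After LPS 6 of the 8 rose and 1 fell in control offspring, where 44.6% of all genes tested were called in either direction. In MIA offspring 5 rose and 1 fell, where 39.1% of all genes were called. The background by direction was 23.3% higher and 21.3% lower in control offspring, and 20.8% higher and 18.3% lower in MIA offspring. The median log2 fold change of the 8 was 0.66 in control and 0.72 in MIA offspring, beside -0.0032 and 0.018 over all genes. For 6 of the 8 genes, in each maternal group, the LPS libraries did not overlap the saline libraries, as held for 28.9% of all genes tested in control and 36.5% in MIA offspring. The sizes differed widely between the genes: Zbp1 ranked 118th from the top of 14741 genes in control offspring, Dhx58 597th and Ifih1 916th, while Ddx58 ranked 3325th and Tbk1 3867th.

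**Figure D1:**
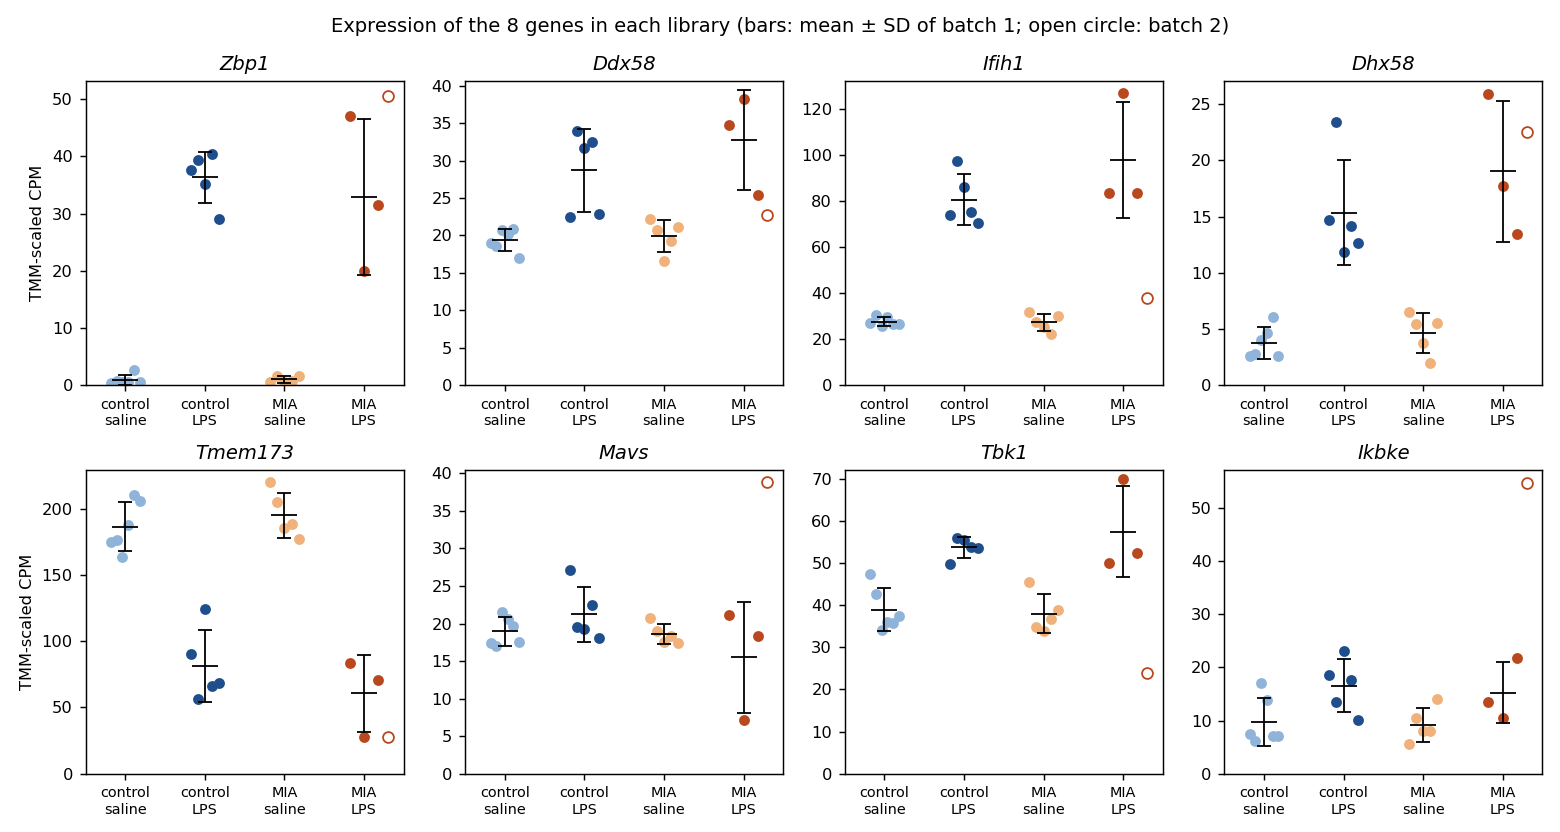
TMM-scaled CPM of each of the 8 genes (y axis, linear, from 0) by maternal group and treatment (x axis). Filled points are batch 1 libraries, bars are their mean ± SD, and the open circle is the batch 2 library. Zbp1 is near 0 after saline and between 20.04 and 47.1 after LPS in batch 1 (50.7 in batch 2), and Tmem173 is the only gene whose LPS libraries all lie below its saline libraries.

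Ordered by level per kilobase of annotated exon, Tmem173 stood first in every group and Tbk1 next. After saline in control offspring Tmem173 was at 68.0 ± 6.75 CPM per kilobase (SD, n = 6), Tbk1 at 9.95 ± 1.30 and Mavs at 5.66 ± 0.56. Below them came Ifih1 at 3.38 ± 0.22, Ddx58 at 2.75 ± 0.21, Dhx58 at 1.15 ± 0.43, Ikbke at 1.08 ± 0.51 and Zbp1 at 0.255 ± 0.250. The adaptors and TBK1 were thus the abundant transcripts of the resting cells and the sensors the scarce ones, with Dhx58 and Ikbke within their spread of each other. After LPS in control offspring the order was Tmem173 (29.6 ± 9.86, n = 5), Tbk1 (13.7 ± 0.63), Zbp1 (10.3 ± 1.28), Ifih1 (9.88 ± 1.35), Mavs (6.35 ± 1.09), Dhx58 (4.69 ± 1.43), Ddx58 (4.07 ± 0.79) and Ikbke (1.84 ± 0.55). Zbp1 moved from the last place to the third, and Zbp1 and Ifih1, like Dhx58 and Ddx58, lay within their spread of each other. MIA offspring had the same order as controls after saline. After LPS their spread (n = 3) was too wide to separate Tmem173 at 22.2 ± 10.7 from Tbk1 at 14.7 ± 2.76 CPM per kilobase, or Tbk1 from Ifih1 at 12 ± 3.08. The place of Ikbke depends on the length used, since its annotated exons span 9018 bases and its longest coding transcript 3251 bases. By that transcript Ikbke was at 3.01 ± 1.40 in control saline, above Dhx58 at 1.56 ± 0.58. Mavs at 6.20 ± 0.62 was then closer to Ifih1 at 5.05 ± 0.33 and Ddx58 at 5.01 ± 0.39. By the same measure Zbp1 (18.3 ± 2.28) and Tbk1 (17.8 ± 0.82) changed places in control LPS, where Ddx58 also came before Mavs and Dhx58, and Ddx58 came before Ifih1 in MIA saline and before Dhx58 in MIA LPS, each pair within its spread. Tmem173 stayed first in every group.

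Zbp1, the Z-nucleic acid sensor, had the largest response of the 8 in both maternal groups. In control saline libraries its level ran from 0.339 to 2.68 CPM with a median of 0.578, and in control LPS libraries it was 37.5, 39.4, 35.1, 40.5 and 29.1 CPM. In MIA saline libraries it was 0.526, 1.53, 0.540, 0.688 and 1.67 CPM, and in MIA LPS libraries 47.1, 20.04 and 31.5 CPM. Every LPS library lay far above every saline library, with MIA LPS replicate 2 the lowest among them. On the log2 scale Zbp1 rose by 5.28 ± 0.39 (SE; adjusted p = 7.14e-10 in edgeR) in control and by 5.03 ± 0.44 (edgeR adjusted p = 1.50e-08) in MIA offspring, which is 38.8-fold and 32.7-fold. The saline counts behind these folds were small, 6 to 46 reads per control library. Control saline replicate 5 held the 46, and without it the log2 fold change in control offspring was 6.06 ± 0.30.

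Ifih1, the sensor of long double-stranded RNA, was expressed before LPS and rose in every LPS library. Its level was 25.7 to 30.3 CPM in control saline libraries (median 26.9) and 74.0, 97.4, 86.3, 75.4 and 70.5 CPM in control LPS libraries. In MIA offspring it was 31.6, 27.2, 25.1, 22.2 and 30.0 CPM after saline and 83.4, 127 and 83.5 CPM after LPS. Saline and LPS libraries were well apart, and MIA LPS replicate 2 was the highest of all. The log2 fold change was 1.55 ± 0.13 in control (edgeR adjusted p = 2.10e-10) and 1.85 ± 0.15 in MIA offspring (edgeR adjusted p = 2.92e-10), or 1.62 ± 0.14 without MIA LPS replicate 2. The batch 2 library was at 37.9 CPM, closer to the saline libraries than any other LPS library.

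Ddx58, the sensor of RNA with a 5′ triphosphate end, started near the level of Ifih1 and rose far less. Control saline libraries held 16.96 to 20.9 CPM (median 19.6) and control LPS libraries 22.5, 34.0, 31.7, 32.4 and 22.8 CPM. MIA saline libraries held 22.2, 20.7, 16.6, 19.2 and 21.1 CPM and MIA LPS libraries 34.8, 38.3 and 25.4 CPM. The groups did not overlap, but control LPS replicates 1 and 5 stood within 2 CPM of the highest control saline library. The batch 2 library was at 22.7 CPM, near the highest MIA saline library. Ddx58 rose by 0.56 ± 0.14 in control (edgeR adjusted p = 0.00143) and by 0.72 ± 0.16 in MIA offspring (edgeR adjusted p = 0.000896). Without MIA LPS replicate 2 the value in MIA offspring was 0.59 ± 0.18.

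Dhx58, whose protein LGP2 binds RNA without signalling through MAVS itself, was low after saline and rose about as much in both maternal groups. Its level was 2.56 to 6.06 CPM in control saline libraries (median 3.38) and 14.7, 23.4, 11.8, 14.1 and 12.7 CPM in control LPS libraries. In MIA offspring it was 6.49, 5.46, 3.71, 1.93 and 5.53 CPM after saline and 25.9, 17.7 and 13.5 CPM after LPS. No LPS library overlapped a saline library, and control LPS replicate 2 and MIA LPS replicate 1 were the high ones. The log2 fold changes were 2.03 ± 0.27 (edgeR adjusted p = 1.41e-06) in control and 2.04 ± 0.32 (edgeR adjusted p = 1.35e-05) in MIA offspring. An antisense gene, Dhx58os, shares exon bases with Dhx58. It held 0 to 12 reads a library, and since strand use in counting is not given its reads cannot be told apart from those of Dhx58.

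Ratios of genes within a library, which do not depend on how libraries are scaled, separated the RNA sensors. The log2 ratio of Ddx58 to Ifih1 counts was -0.695 to -0.310 in control saline libraries and -1.71 to -1.21 in control LPS libraries. The shift of -0.993 gave p = 0.00433 in a two-sided exact permutation test, the smallest that 6 against 5 libraries allow, and 0.0289 after adjustment over 20 such comparisons. In MIA offspring the shift was -1.12, with p = 0.0357 in the exact permutation test, the smallest that 5 against 3 allow, and 0.119 after adjustment. Dhx58 against Ifih1 shifted by 0.486 in control offspring (exact permutation p = 0.0996, adjusted 0.285), within the spread of the libraries. So Ddx58 fell behind Ifih1 by more than the replicate spread in control offspring, while a gap between Dhx58 and Ifih1 was not detectable. With any 1 of the 11 control libraries left out the test has fewer divisions and the adjusted p for Ddx58 against Ifih1 was 0.0529 to 0.0635, with shifts of -1.07 to -0.940.

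To show what lies ahead of genes that moved by different amounts, the 250 bases before the RefSeq start (GRCm38.p6, gene strand, 5′ to 3′) are given for the small riser Ddx58 (chr4:40239826-40240075, minus strand), the larger riser Ifih1 (chr2:62646256-62646505, minus strand) and Mavs (chr2:131233813-131234062, plus strand), which was called in neither maternal group. Capitals mark a match to GAAANGAAA (GAAA, any base, GAAA), a string chosen after the sequences were seen.
Ddx58: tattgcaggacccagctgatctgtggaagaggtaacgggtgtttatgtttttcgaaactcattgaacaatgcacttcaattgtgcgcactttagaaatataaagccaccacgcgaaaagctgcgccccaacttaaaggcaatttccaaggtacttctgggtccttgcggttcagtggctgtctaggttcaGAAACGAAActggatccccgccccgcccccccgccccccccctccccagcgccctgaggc
Ifih1: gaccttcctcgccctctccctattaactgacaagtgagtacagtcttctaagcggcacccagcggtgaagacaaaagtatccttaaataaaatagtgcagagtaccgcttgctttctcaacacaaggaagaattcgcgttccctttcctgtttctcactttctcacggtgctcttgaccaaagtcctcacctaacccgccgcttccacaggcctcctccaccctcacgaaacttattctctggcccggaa
Mavs: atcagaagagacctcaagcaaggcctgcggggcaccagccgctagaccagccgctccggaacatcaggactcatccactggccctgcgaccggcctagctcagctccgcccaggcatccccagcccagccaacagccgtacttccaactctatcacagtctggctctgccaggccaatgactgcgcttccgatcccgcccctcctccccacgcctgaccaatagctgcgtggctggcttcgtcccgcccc
RefSeq promoters of 5 of the 8 genes were searched, these and Tbk1 and Ikbke. Those of Zbp1, Dhx58 and Tmem173 were not searched, so nothing is said of the gene that fell. Searched on both strands, none of the 5 held GAAA, any 2 bases, GAAA (the interferon-stimulated response element, in 2.98% of 32851 promoters of this length), TTCNNNGAA (the gamma-activated site, 7.02%) or an NF-kB motif (3.90%). GAAANGAAA, added to the search after the sequences were seen, overlaps the response element in its letters and is held by 2.68% of promoters. Of the 5 it matched Ddx58 alone, at -60 to -52 from the start. A match describes letters only, and windows further away were not searched.

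Tmem173, the adaptor STING and the most abundant of the 8 per kilobase, was the gene that fell. Control saline libraries held 163.5 to 210.0 CPM (median 181.9) and control LPS libraries 90.1, 56.4, 124, 66.2 and 68.8 CPM. MIA saline libraries held 219.8, 204.9, 185.2, 188.7 and 177.5 CPM and MIA LPS libraries 83.4, 27.8 and 71.0 CPM. All LPS libraries lay below all saline libraries. In batch 1 control LPS replicate 3 was the least lowered and MIA LPS replicate 2 the most. The batch 2 library, at 27.73 CPM, was as low as MIA LPS replicate 2 at 27.78 CPM. Tmem173 fell by 1.20 ± 0.21 on the log2 scale in control (edgeR adjusted p = 5.61e-05) and by 1.69 ± 0.27 in MIA offspring (edgeR adjusted p = 1.98e-05), to 0.435 and 0.311 of the saline level. Without MIA LPS replicate 2 the fall in MIA offspring was -1.34 ± 0.21. In bulk RNA, fewer cells of a type and less RNA per cell cannot be told apart. The summed microglial markers fell over the same libraries, and their part in the fall of Tmem173 was not tested.

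Mavs, the adaptor of RIG-I and MDA5, was not called in either maternal group. Its level was 16.97 to 21.5 CPM in control saline libraries (median 18.6) and 27.1, 19.5, 19.2, 22.4 and 18.0 CPM in control LPS libraries. In MIA offspring it was 20.7, 19.0, 17.5, 18.3 and 17.4 CPM after saline and 21.1, 7.09 and 18.3 CPM after LPS. Saline and LPS libraries overlapped in both groups. The log2 fold change was 0.17 ± 0.18 in control (edgeR adjusted p = 0.474), with a 95% interval of -0.20 to 0.54, and -0.26 ± 0.22 in MIA offspring (edgeR adjusted p = 0.375). The sign in MIA offspring rested on MIA LPS replicate 2: without that library the value was 0.087 ± 0.17. The batch 2 library, at 38.9 CPM, was the highest of all libraries for Mavs. Against Mavs in the same library, Ifih1 rose by 1.38 on the log2 scale in control offspring (exact permutation p = 0.00433, adjusted 0.0289), and the adjusted p was 0.0529 to 0.0635 with any 1 control library left out. In MIA offspring the shift was 2.22 (exact permutation p = 0.0357, adjusted 0.119, not called), and 1.54 without MIA LPS replicate 2.

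**Figure D2:**
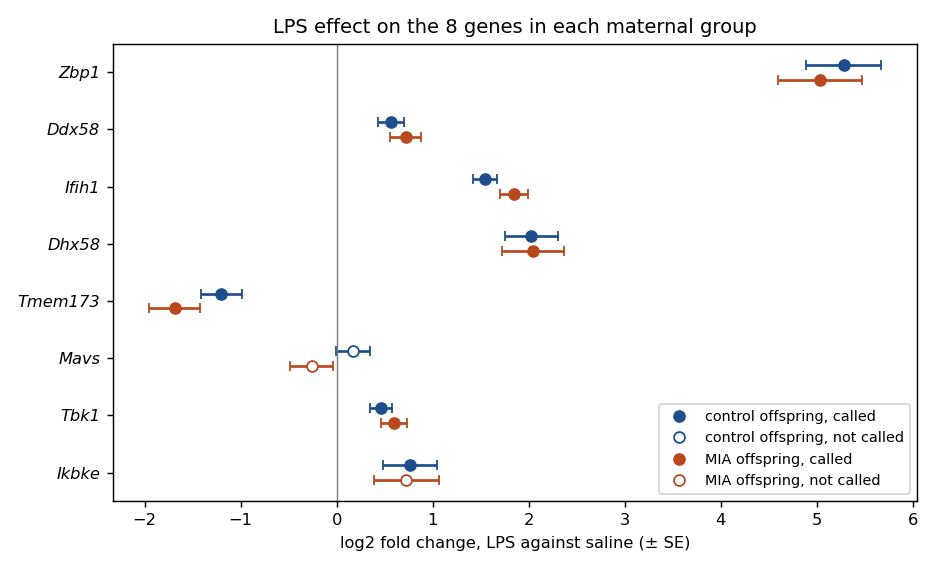
Log2 fold change of LPS against saline (x axis, bars ± SE from edgeR) for the 8 genes (y axis) in control and MIA offspring. Filled points passed an adjusted p of 0.05 and open points did not: Mavs was open in both groups and Ikbke in MIA offspring. The pairs of points lie within their errors of each other or close to it, from 5.28 and 5.03 for Zbp1 to -1.20 and -1.69 for Tmem173.

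Tbk1, the kinase shared by the STING and MAVS arms, rose by a small amount. Control saline libraries held 34.2 to 47.5 CPM (median 36.7) and control LPS libraries 49.7, 55.9, 55.6, 53.8 and 53.4 CPM. MIA saline libraries held 45.4, 34.9, 33.9, 36.6 and 38.9 CPM and MIA LPS libraries 50.1, 69.8 and 52.4 CPM. The groups did not overlap, and the coefficient of variation in control LPS libraries, 4.62%, was the lowest of the 8 genes there, while it was 18.8% in MIA LPS libraries. Tbk1 rose by 0.46 ± 0.12 in control (edgeR adjusted p = 0.00184) and by 0.60 ± 0.14 in MIA offspring (edgeR adjusted p = 0.00105). The batch 2 library, at 23.9 CPM, was below every saline library, and with it kept and no batch term the rise in MIA offspring was not called (0.37 ± 0.19, edgeR adjusted p = 0.132).

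Ikbke, the inducible relative of TBK1, was the gene whose call was least firm. Control saline libraries held 6.15 to 17.1 CPM (median 7.26) and control LPS libraries 18.6, 13.4, 23.2, 17.6 and 10.2 CPM. MIA saline libraries held 5.61, 10.4, 8.10, 7.98 and 14.1 CPM and MIA LPS libraries 13.5, 10.6 and 21.7 CPM. Saline and LPS libraries overlapped in both maternal groups. Ikbke rose in control offspring, by 0.76 ± 0.28 (edgeR adjusted p = 0.0332), and in MIA offspring its log2 fold change was 0.72 ± 0.34 (edgeR adjusted p = 0.0981). The control call was lost, at values of 0.59 to 0.74 and edgeR adjusted p of 0.0651 to 0.115, on leaving out any of control LPS replicates 1, 3 and 4 or control saline replicates 1, 2, 5 and 6. The lowest value, 0.59, was that without control LPS replicate 3. In MIA offspring the call was gained without MIA saline replicate 5 (0.92, edgeR adjusted p = 0.0385), and the value was lowest, 0.38, without MIA LPS replicate 3. The batch 2 library was at 54.7 CPM, above all others, and without a batch term the value in MIA offspring became 1.43 ± 0.40 (edgeR adjusted p = 0.00687). Exons of Ikbke share bases with antisense genes Gm28913 and Gm28914, which held at most 14 and 9 reads a library.

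Part of the spread of Ikbke went with the second number of the ID label, a pattern that was noticed after the values were seen. What this number marks was not given in the sources used here. The 2 control saline libraries with number 13 had 17.1 and 13.9 CPM and the MIA saline library with number 11 had 14.1 CPM, above all other saline libraries. The LPS libraries of the same numbers, at 23.2 and 21.7 CPM, were the highest batch 1 LPS libraries of their groups. Elsewhere the levels followed the number less: the MIA saline libraries of number 3 held 5.61 and 10.4 CPM. Control numbers 2, 15 and 16 were alike after saline, at 7.40, 7.05 and 7.13 CPM. After LPS they were at 13.4, 17.6 and 10.2 CPM. In each of the 7 numbers that hold both treatments the LPS level exceeded the mean saline level, from 1.31-fold in number 9 to 2.49-fold in number 15. With the number as a block, an alternative added for this pattern, the log2 fold change was 0.80 ± 0.19 in control (edgeR adjusted p = 0.00221) and 0.59 ± 0.20 in MIA offspring (edgeR adjusted p = 0.0283). The SE of Ikbke fell from 0.284 to 0.190 in control and from 0.340 to 0.205 in MIA offspring, while the median SE of all genes went from 0.219 to 0.236 and from 0.265 to 0.258. The block was picked from these same Ikbke values, so its smaller SE and p-values for Ikbke are no separate evidence of a rise. Among the other 7 genes the block changed no call. Their LPS level exceeded the saline level in 7 of 7 numbers for Zbp1, Ddx58, Ifih1, Dhx58 and Tbk1, in 5 for Mavs and in 0 for Tmem173.

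**Figure D3:**
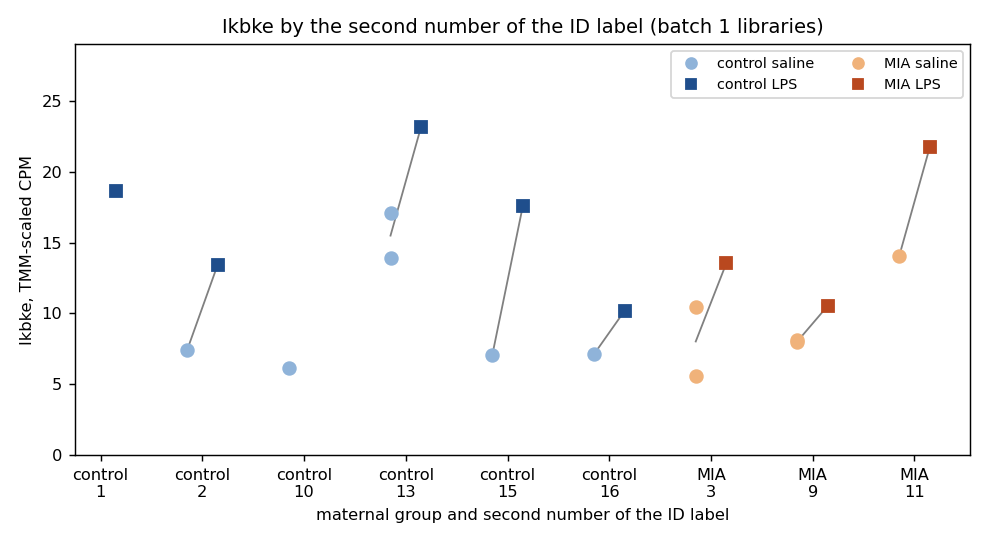
TMM-scaled CPM of Ikbke (y axis, from 0) in batch 1 libraries, set out by maternal group and the second number of the ID label (x axis). Circles are saline and squares LPS libraries, and lines join the mean saline to the LPS level where a number holds both. All 7 lines rise, and numbers 13 and 11 are high in both treatments, at 13.9 to 17.1 after saline and 21.7 to 23.2 after LPS.

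Offspring of MIA dams did not differ from controls in any of the 8 genes at an adjusted p under 0.05, after saline, after LPS or in the size of the LPS response, and 0 of 14741 genes were called in each of these comparisons, a background of 0%. At an unadjusted p under 0.05 edgeR had 415, 824 and 492 genes after saline, after LPS and in the difference of responses, with 0, 1 and 0 of the 8 among them. DESeq2 called 6, 0 and 0 genes, none of them one of the 8. The maternal groups overlapped in all 8 genes: 0 of 8 were apart after saline or after LPS, beside 0.407% and 2.68% of all genes. The limits are those of the intervals, which take each library as 1 sample. In batch 1 the MIA libraries carried 3 second numbers of the ID label and the control libraries 6. No number was held by both maternal groups. After saline the MIA minus control log2 difference of Ifih1 was -0.020 with a 95% interval of -0.28 to 0.24, and that of Tbk1 -0.038 (-0.28 to 0.20), while that of Zbp1 was 0.10 (-0.92 to 1.12). The difference of the LPS responses was 0.30 ± 0.20 for Ifih1, -0.48 ± 0.32 for Tmem173 and -0.43 ± 0.29 for Mavs, with an edgeR adjusted p of 0.9999 for each of the 8. Without MIA LPS replicate 2 these became 0.070 ± 0.18, -0.13 ± 0.25 and -0.082 ± 0.21. After LPS the gene with an unadjusted p under 0.05 was Mavs, at -0.46 ± 0.22 (edgeR adjusted p = 0.881, unadjusted 0.0485), and at -0.11 ± 0.17 without that library. Among LPS libraries of batch 1, MIA LPS replicate 2 had the highest summed CPM of 6 astrocyte markers (218, others 105 to 147) and of 7 oligodendrocyte markers (90.1, others 31.3 to 55.3). Saline libraries had sums of 165 to 264 for the astrocyte and 38.2 to 75.1 for the oligodendrocyte markers. The part of these markers in the values of Mavs and Tmem173 was not tested.

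Other genes of the pathways around the 8 were described by lists of textbook members. The counts called in each list stand beside a background over all genes tested. In control offspring 23.3% of all genes were called higher and 21.3% lower, and in MIA offspring 20.8% and 18.3%. Among genes of DNA sensing 8 of 12 measured rose and 1 fell in control offspring (median 0.75), and 6 rose and 0 fell in MIA offspring (median 0.63). Cgas, the enzyme that feeds STING, was not called (0.26 ± 0.17 and 0.46 ± 0.21). The genes with the smallest p were the DNA-binding Ifi204, with log2 fold changes of 5.15 ± 0.23 and 5.11 ± 0.27, the cytosolic DNA exonuclease Trex1, with 2.12 ± 0.18 and 2.39 ± 0.21, and the nucleotide hydrolase Samhd1, with 1.69 ± 0.15 and 1.69 ± 0.18.  Ifi204 has close copies in the genome, and its value is uncertain to that extent.

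Of 8 genes around ZBP1 and necroptosis, 4 rose and 3 fell in control (median 0.29) and 4 rose and 1 fell in MIA offspring (median 0.47). Ripk3, the kinase that ZBP1 recruits, rose by 2.02 ± 0.21 and 2.41 ± 0.25, and Adar, the RNA-editing enzyme whose product restrains ZBP1 and MDA5, by 1.22 ± 0.12 and 1.29 ± 0.15. Casp8, the protease that holds necroptosis in check, fell by 0.63 ± 0.10 and 0.67 ± 0.13. Mlkl, the executioner of necroptosis, rose by 2.74 ± 0.73 and 2.77 ± 0.87 from 0.194 to 1.33 CPM in control offspring, the lowest level of the list.

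Among 19 measured cofactors and brakes of the RNA sensors, 7 rose and 3 fell in control offspring, beside 23.3% and 21.3% of all genes. In MIA offspring 8 rose and 2 fell, beside 20.8% and 18.3%, and the median was 0.11 in each maternal group. Nlrc5, an NLR protein and activator of MHC class I genes, rose by 3.51 ± 0.16 and 3.39 ± 0.19, and Trim25, a ubiquitin ligase of the RIG-I pathway, by 1.17 ± 0.15 and 1.51 ± 0.18. Riok3, a kinase of the pathway, rose by 0.93 ± 0.11 and 0.89 ± 0.13. Rnf135, the ligase Riplet that ubiquitinates RIG-I, was chosen after its values were seen, and fell by 0.95 ± 0.19 and 1.26 ± 0.24.

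Among 10 enzymes that are switched on by double-stranded RNA, 6 rose and 2 fell in control offspring (median 1.52) and 7 rose and 1 fell in MIA offspring (median 2.38). Oasl1 rose by 5.63 ± 0.59 and 4.78 ± 0.59, Oasl2 by 4.57 ± 0.49 and 4.57 ± 0.56, and Oas1a by 2.07 ± 0.28 and 2.34 ± 0.32. The Oas genes have close copies, and how reads of copies were shared is not given.

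The complex of the kinases and the transcription factors had the lowest share of genes called among the 7 lists: 3 of 17 rose and 0 fell in control (median 0.15), and 4 rose and 0 fell in MIA offspring (median 0.23). Over all genes tested 44.6% were called in either direction in control and 39.1% in MIA offspring. Those called higher were 23.3% and 20.8%, and the share of the list called higher was near that background in each maternal group. Irf7, the inducible interferon regulatory factor, rose by 3.45 ± 0.27 and 3.80 ± 0.32, Tank, a scaffold of TBK1, by 1.42 ± 0.12 and 1.41 ± 0.14, and Irf1 by 1.34 ± 0.17 and 1.33 ± 0.20. Irf3, the constitutive substrate of TBK1, was not called (0.19 ± 0.17 and -0.045 ± 0.20).

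Endosomal sensing, the route that reads nucleic acids outside the cytosol, had 4 higher and 4 lower of 10 in control offspring, beside 23.3% and 21.3% of all genes. In MIA offspring 4 were higher and 3 lower, beside 20.8% and 18.3%. Slc15a3, a lysosomal transporter, rose by 1.27 ± 0.13 and 1.14 ± 0.16, and Tlr7, the receptor of single-stranded RNA, by 0.77 ± 0.15 and 1.01 ± 0.18. Tlr9, the receptor of CpG DNA, fell by 0.82 ± 0.17 and 0.53 ± 0.20. Of 15 measured genes of interferon feedback and targets, 11 rose and 0 fell in control (median 2.33) and 12 rose and 0 fell in MIA offspring (median 2.62). Stat2 rose by 2.44 ± 0.19 and 2.63 ± 0.22, and Isg15 by 2.92 ± 0.23 and 2.65 ± 0.26. The interferon gene Ifnb1 itself did not pass the filter, with a group mean of at most 0.334 CPM. None of the genes of these lists was called between MIA and control offspring.

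**Figure D4:**
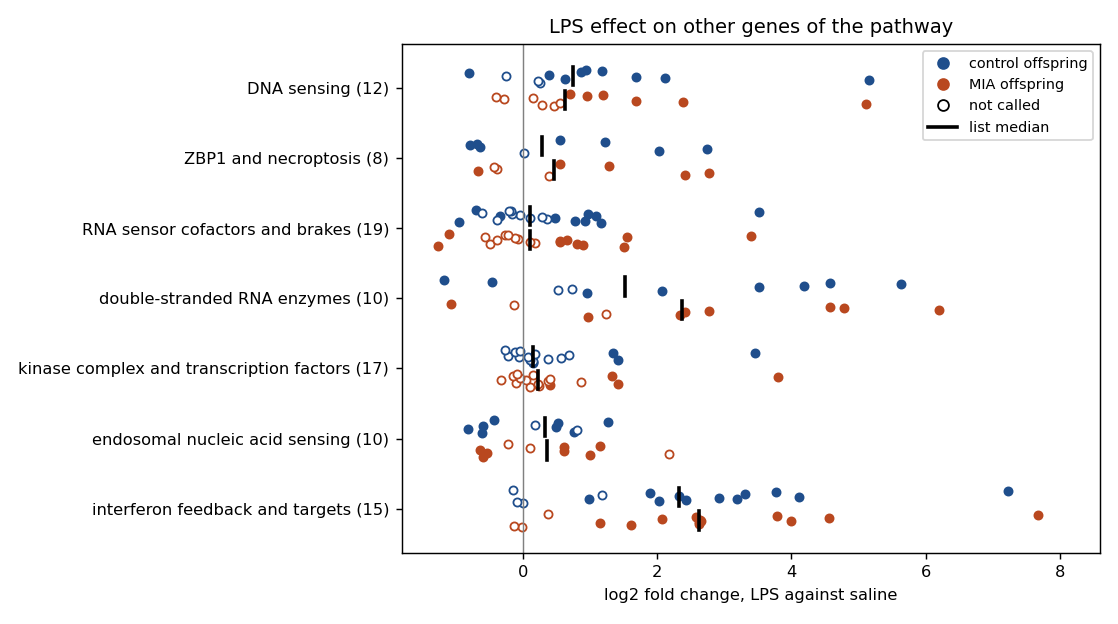
Log2 fold change of LPS against saline (x axis) for each measured gene of 7 lists around the 8 genes (y axis, number measured in brackets), in control and MIA offspring. Filled points passed an adjusted p of 0.05, open points did not, and black bars are list medians. The medians of the interferon list (2.33 and 2.62) and of the double-stranded RNA enzymes (1.52 and 2.38) lie furthest right, and those of the RNA sensor cofactors (0.11 in each group) lie nearest to 0.

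Dhx58 is a textbook interferon target, and its level was set beside the summed CPM of 7 others (Isg15, Ifit1, Ifit2, Ifit3, Rsad2, Mx1 and Usp18, a set picked after the data were seen). In control LPS replicates 1 to 5 the sums were 45.8, 193, 73.8, 83.8 and 88.5 CPM, and replicate 2, the highest, was also the highest for Dhx58. In MIA LPS replicates 1 to 3 the sums were 128, 177 and 54.5 CPM. There replicate 1 was the highest for Dhx58 and Zbp1, and replicate 2 the lowest for Zbp1. The batch 2 library had the highest sum, 206.5 CPM, with 22.6 CPM of Dhx58 and 50.7 CPM of Zbp1. Saline libraries had sums of 10.1 to 24.7 CPM. No correlation was computed, since saline and LPS libraries form separate clusters.

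**Figure D5:**
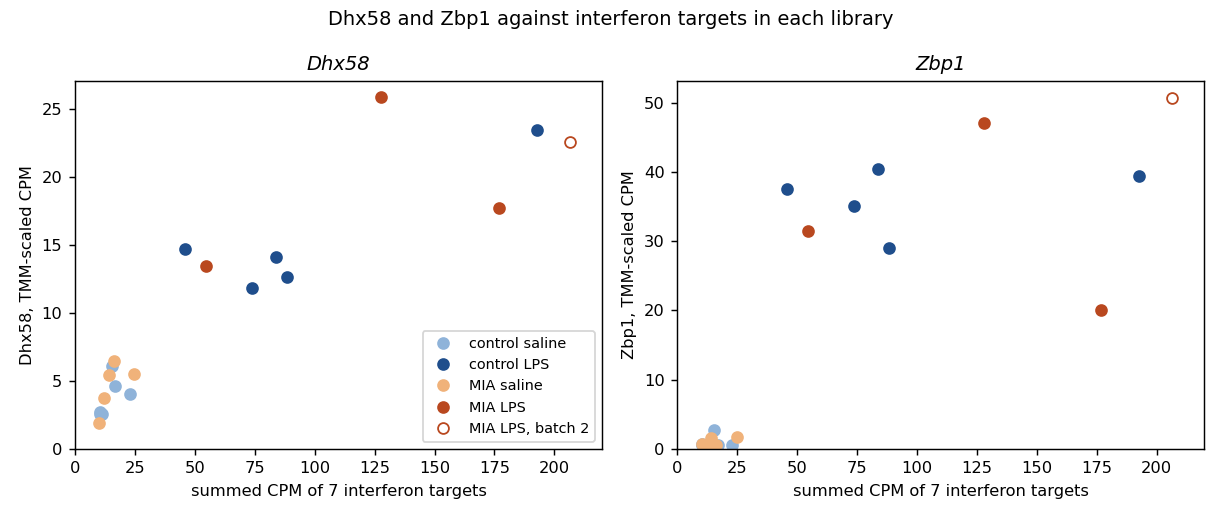
Dhx58 (left) and Zbp1 (right), in TMM-scaled CPM (y axis, from 0), against the summed CPM of 7 interferon targets (x axis) in each library. Filled points are batch 1 libraries coloured by group, and the open circle is the batch 2 library. MIA LPS replicate 2, at 177 on the x axis, is the lowest LPS library for Zbp1 at 20.04 and holds 17.7 of Dhx58.

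For each gene called in both maternal groups, the genes with the most similar profile over the 19 libraries were found among 7678 candidates, by the root mean square (RMS) difference of log2 CPM from the control saline mean. Tmem173 was nearest to Csf3r, a growth factor receptor gene (RMS 0.164), then to Mitf (0.223), a transcription factor, and Dock4 (0.227). Ifih1 was nearest to Tpd52 (0.176), Tmem87b (0.188) and Parp14 (0.203), and Dhx58 to Trex1 (0.411), Rnf213 (0.442) and A930037H05Rik (0.467). Zbp1 lay nearest to Hcar2 (0.561), the receptor of hydroxy-carboxylic acids, Fcgr4 (0.580) and Ehd1 (0.624). Ddx58 lay nearest to Psmd6 (0.177), Ggnbp2 (0.179) and Cwc15 (0.180), and Tbk1 to Ist1 (0.139), Srp9 (0.153) and Dcaf13 (0.154). The medians over all candidates ran from 0.498 for Tbk1 to 3.48 for Zbp1. The 8 genes themselves were not among the candidates.

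Markers of other blood cells were read in the same libraries. Summed CPM of 8 monocyte markers was 2.54 to 6.41 in saline and 17.7 to 53.8 in LPS libraries of batch 1. In MIA saline libraries Ly6c2, Chil3, F10 and Cd177 were at 0, and none of the 8 was at 0 in either LPS group. Ccr2, a defining monocyte gene, went the other way, from 2.93 to 1.30 CPM in control offspring. Over all genes tested 23.3% were called higher and 21.3% lower in control offspring, and 20.8% and 18.3% in MIA offspring. Of 10 neutrophil markers 7 rose and 1 fell in control and 9 rose and 1 fell in MIA offspring. Their sum was 157 to 233 after saline and 100 to 202 after LPS, since most of it was Csf3r, the gene that fell, from 180 to 71.0 CPM in control offspring. S100a9 went from 2.04 to 34.2 CPM there. Retnlg and Mmp8 were at 0 in control saline and 6 of the 10 were at 0 in MIA saline libraries. The batch 2 library stood at 110 for the monocyte and 452 for the neutrophil list, above every other library. Lymphocyte markers summed to at most 0.408 CPM, with Cd3e at 0 in every group of batch 1. The monocyte sum and most neutrophil markers were higher after LPS, as were Zbp1, Ifih1, Dhx58, Ddx58 and Tbk1, and their part in the values of these genes was not tested.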

How the data were processed

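RNA-seq libraries of sorted microglia numbered 21, and 20 entered the fit, 19 of them from batch 1. The table deposited by the authors holds expected counts per gene, estimated before deposit with RSEM after STAR, tools that are named with DESeq2 in the submitters' processing notes; their versions, the genome build, the use of strand and the sharing of reads between gene copies were not given in the sources used here. Rounding to whole counts changed 6.27% of values. Gene names came from Ensembl identifiers matched without version to GENCODE M21 (55141 of 55487), and promoters from RefSeq. The rRNA gene CT010467.1 took 42.98% to 58.12% of counts.

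Counts were fitted with edgeR 4.0.16 (R 4.3.3, robust quasi-likelihood, TMM) with a mean per group and a batch term, on 14741 genes kept by filterByExpr by group (count of 10, total of 15), which hold 99.89% of counts. The first filter used was by design; it was replaced after its results were seen and is kept as an alternative. P-values were adjusted by Benjamini-Hochberg over these genes, and 95% intervals use the t distribution with edgeR's degrees of freedom. Ratios within a library (prior count 2) were compared by two-sided exact permutation tests. Pathway genes named are the 3 of each list with the smallest p in control offspring, apart from results that are not reported here; Cgas, Mlkl, Irf3, Rnf135 and Ifnb1 were added after their values were seen. The 8 genes and the lists were chosen with earlier results of these data known. The script was tested on simulated data. Between replicates of a group counts differed by more than sampling noise (chi-square over degrees of freedom of at least 9.58), so each counted as 1 sample. Same-numbered libraries of different groups had deviations that correlated by -0.136 to 0.221 (5 of 24 pairs over 0.1), so replicate numbers were not taken to pair them. Alternatives were other scalings, filters, DESeq2 1.42.0, limma 3.58.1, blocks, no batch term, the library titled excluded kept and each library left out.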

Additional observations from a re-analysis of the deposited data

Results flagged for a closer look

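Dixon's test of the highest and lowest library was run in 32 groups of 4 to 6 libraries, with the batch 2 library as the 4th of each MIA LPS group, and chance alone marks about 1 in 20 groups. It marked 2. Zbp1 in control saline replicate 5 was at 2.681 CPM, with the nearest library of the group at 0.735 CPM. The gap was 0.831 of the group's range, against a critical value of 0.625 for 6 libraries. Dhx58 in control LPS replicate 2 was at 23.45 CPM, with the nearest library at 14.68 CPM, a gap of 0.755 of the range against 0.710 for 5 libraries. Without control LPS replicate 2 the log2 fold change of Dhx58 in control offspring was 1.82 ± 0.27 (edgeR adjusted p = 6.48e-06).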

How the results depend on the processing

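The calls of Zbp1, Ddx58, Ifih1, Dhx58 and Tmem173 after LPS held in both maternal groups under all 32 alternatives, and so did that of Tbk1 in control offspring. Between 6 and 7 of the 8 genes were called under each alternative, among 5064 to 7219 genes in control and 4813 to 6005 in MIA offspring. The call of Ikbke in control offspring was lost with RLE (0.68, edgeR adjusted p = 0.0550) or upper quartile scaling (0.67, 0.0596), with no expression filter (0.76, 0.0928) and with no batch term (0.76, 0.112). In MIA offspring it was gained with limma-voom sample weights (0.89, adjusted p = 0.0460). With the first filter no call of the 8 genes changed. The replicate block changed no call (Ikbke 0.75, adjusted p = 0.0304, in control and 0.65, adjusted p = 0.124, in MIA offspring), and its only change of sign was Ddx58 in MIA against control after saline, -0.00030.

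Signs changed only among differences that were not called, and the cause was not tested. With no batch term Mavs after LPS in MIA offspring was 0.19, the differences of responses were 0.024 for Mavs, -0.089 for Tbk1 and 0.67 for Ikbke, and MIA against control after LPS was 0.036 for Zbp1, -0.13 for Tbk1 and 0.59 for Ikbke. With limma-voom weights the differences of responses were -0.012 for Ddx58, -0.020 for Dhx58 and 0.079 for Ikbke, and after LPS -0.025 for Tbk1 and 0.069 for Ikbke. With the library titled excluded kept, the differences of responses were -0.066 for Dhx58 and 0.025 for Ikbke. With the ID number as a random effect Ikbke after saline was 0.047 and 1 gene was called in the difference of responses. DESeq2 called 6 genes after saline. With the batch 2 library added, the within-library ratios after LPS differed by 0.575 for Ikbke to Tbk1 and 0.142 for Ddx58 to Ifih1.

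Leaving out 1 library at a time, Mavs after LPS in MIA offspring ran from -0.55 to 0.087. The difference of responses had 0 to 2 genes called (2 without MIA LPS replicate 1, 1 without control saline replicate 4) and ran from -1.03 to 0.041 for Zbp1, -0.27 to 0.23 for Dhx58, -0.027 to 0.23 for Tbk1 and -0.38 to 0.17 for Ikbke. After saline the values ran from -0.19 to 0.88 for Zbp1 (highest without control saline replicate 5), -0.075 to 0.046 for Ifih1, -0.066 to 0.017 for Mavs, -0.11 to 0.028 for Tbk1 and -0.28 to 0.17 for Ikbke. After LPS 0 to 4 genes were called (4 without MIA LPS replicate 1, 3 without replicate 3), and values ran from -0.50 to 0.11 for Zbp1, -0.066 to 0.19 for Tbk1 and -0.46 to 0.097 for Ikbke. The called ratios in control offspring ran from -1.07 to -0.940 for Ddx58 to Ifih1, 6.51 to 6.98 for Zbp1 to Tmem173 and 1.281 to 1.499 for Ifih1 to Mavs, all with adjusted p over 0.05 since fewer libraries give fewer divisions. For LPS in MIA offspring, Ikbke to Tbk1 ran from -0.214 to 0.508 and Dhx58 to Ifih1 from -0.105 to 0.470. After saline, Ikbke to Tbk1 ran from -0.151 to 0.228, Ifih1 to Mavs from -0.0640 to 0.0618 and Zbp1 to Tmem173 from -0.0117 to 0.530. After LPS, Dhx58 to Ifih1 ran from -0.309 to 0.266, Ddx58 to Ifih1 from -0.221 to 0.0156 and Ikbke to Tbk1 from -0.552 to 0.170. Depth limits Zbp1 after saline (85 reads in 6 control libraries), and 3 MIA LPS libraries limit the comparisons of the maternal groups after LPS and of their LPS responses.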

Other observations

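The MIA saline library titled excluded by its submitters had 5.286 M counts. Its levels were 0.958 CPM for Zbp1, 19.5 for Ddx58, 28.4 for Ifih1, 6.71 for Dhx58, 209 for Tmem173, 19.2 for Mavs, 39.7 for Tbk1 and 6.32 for Ikbke. Each lay within the range of the 5 MIA saline libraries used, apart from Dhx58, which was above their highest of 6.49 CPM.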
